A study of Cocos nucifera with 22 samples.

Results

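The genes described here were those of the coconut leaf whose transcript level stayed at or above 350 FPKM (fragments per kilobase of gene model, scaled to the size of the library, a level per length) in each of 22 libraries. Genes of this level with a product name holding ribosomal, photosystem, chlorophyll, ferredoxin, plastocyanin, oxygen-evolving, metallothionein or BURP were left out. Of 25247 genes listed in any library, 99 reached the level in all 22, 36 of these were left out by product, and 63 members remained. All 63 had a product name in the study's annotation and all 63 passed the filter on low counts, as did 18840 genes in all. The rule used the levels in every library, so the levels below are a description. It also kept out any gene that dropped under 350 FPKM in a single library, so the balance of rising and falling members is partly set by the choice.

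Leaves came from greenhouse seedlings of Hainan tall and Aromatic dwarf (Aromatic Coconut), both varieties of Cocos nucifera. Irrigation was weekly, with Murashige and Skoog nutrient solution that held 200 mM NaCl from time 0 on, so that a further dose of salt fell between the 6 and 10 day samplings. Each variety had 3 libraries at 0 h, taken as the control, 3 at 4 h, 3 at 6 days and 2 at 10 days. No unsalted leaves after 0 h are described, so salt cannot be told apart from the hour of sampling, the time elapsed or the nutrient solution. By the study's methods, libraries with the same number came from the same leaf. Which leaf lacked a library at 10 days is not stated, so libraries of that time were assigned to leaves by number alone. The sources leave unclear if each leaf belonged to a separate seedling, so p-values measure the spread between these leaf samples. The 3 time comparisons of a variety share its 0 h libraries. The libraries ran on 2 flow cells, 11 on each, unevenly over the groups: all 3 dwarf 0 h libraries were on 1 and both dwarf 10 day and both tall 10 day libraries on the other, and the tests carried flow cell as a term.

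A mature leaf devotes much of its messenger RNA to photosynthesis. In the Calvin cycle, Rubisco fixes CO2 onto a sugar phosphate, and when it takes up oxygen instead, photorespiration recovers the carbon through peroxisomes and mitochondria. Leaves of many plants also make flavonoids, through chalcone synthase and a chain of later enzymes. Ubiquitin, elongation factors and histones are housekeeping genes often chosen as references in quantitative PCR because their transcripts are held to be steady.

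The total expected count ran from 2977359 to 3445467 per library, and the smallest count of any member in any library was 219. For 37 members the expected count was not a whole number in at least 1 library, and for 32 in at least 17 libraries. Such counts hold reads divided among near-identical sequences, and the level of these genes is uncertain to that extent. They include both polyubiquitins, Rubisco activase, fructose-bisphosphate aldolase, elongation factor 1-alpha and histone H2A. The count was whole in all 22 libraries for 26 members, histone H3.3 among them. The 36 genes left out by product held 2.76% to 8.69% of the count of a library. These and the members were chosen for a high level in every library, so their levels are no check of the leaf label.

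Median levels over the 22 libraries ran from 468 FPKM for aspartic proteinase (CN01_01G022350) to 32251 FPKM for Rubisco small chain (CN01_03G009080, chr3:60397286-60398856 of assembly ASM812446v1), the nuclear-encoded subunit of Rubisco. The median of the 63 medians was 1066 FPKM. Below Rubisco small chain came fructose-bisphosphate aldolase (CN01_15G002290, chr15:5068360-5072410), a Calvin cycle enzyme, at a median of 4583 FPKM. Rubisco activase 2 (CN01_04G001440, chr4:3803411-3806803), which frees Rubisco of bound sugar phosphates, followed at 4170.3 FPKM. Next were a non-specific lipid-transfer protein (CN01_12G006310) at 3554 FPKM, and cycloartenol C-24-methyltransferase 1 (CN01_scaffold026260G000010), an enzyme of plant sterol synthesis, at 2954 FPKM. Just inside the level were histone H1 (CN01_08G006060), with a lowest library of 358 FPKM, inositol-3-phosphate synthase (CN01_02G007310) with 364 FPKM and a chloroplast stem-loop binding protein (CN01_scaffold001675G000030) with 365 FPKM. Just outside were the chloroplast Clp protease subunit ClpA (CN01_15G005760), with 346 FPKM, an aspartyl protease family protein (CN01_01G012560) with 344 FPKM and CURVATURE THYLAKOID 1B (CN01_07G008400) with 338 FPKM.

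**Figure D1:**
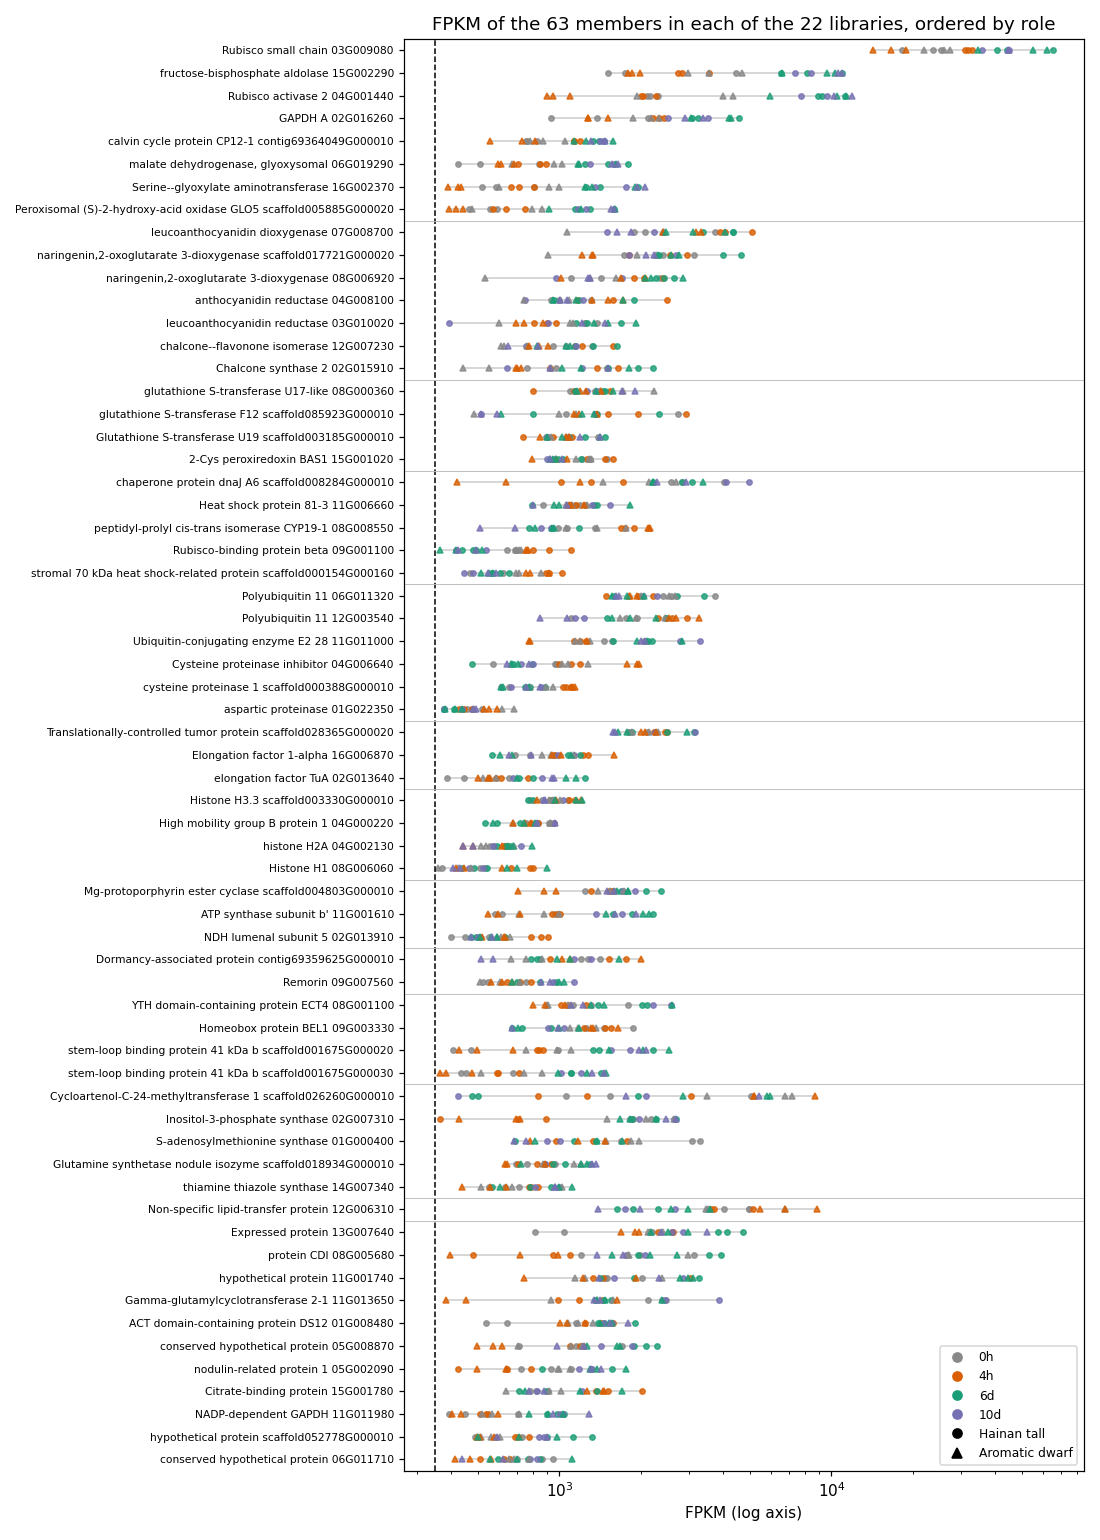
FPKM on a log axis of the 63 members in each of the 22 libraries, grouped by role with lines between groups; colour marks the time, circles the tall and triangles the dwarf, and the dashed line is the level of 350 FPKM. Rubisco small chain stands above all others, at 14236 FPKM or more in every library.

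Abundance in every library did not mean an even level. The ratio of the highest to the lowest group mean ran from 1.33 to 11.2, with a median of 2.40. It was under 1.5 for 3 members, under 2 for 22 and at least 5 for 4 of the 63, while between single libraries no member stayed within 1.5-fold and 6 stayed within 2-fold. With FPKM divided by the TMM factor (the trimmed mean scaling used in the tests) the group ratio was under 2 for 18 members. The dwarf 4 h group had the lowest mean for 26 members, and the dwarf 10 day group the highest for 14.

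Histone H3.3 (CN01_scaffold003330G000010), the replacement form of histone H3, had the smallest ratio of group means in unscaled FPKM, 1.33. Divided by the TMM factor its ratio was 1.53, and the smallest was then 1.34, of aspartic proteinase. Its FPKM was 777, 1077 and 863 at 0 h in the tall, 925, 1081 and 1144 at 4 h, 766, 801 and 936 at 6 days and 1029.5 and 956 at 10 days. In the dwarf it was 946, 1006 and 914, 826, 1199 and 972, 1148, 1207 and 963 and 877 and 884 FPKM at the same times. The groups overlapped in both varieties at 4 h. The dwarf 10 day pair lay below its 0 h libraries in unscaled FPKM and above them once divided by the TMM factor. The 95% interval of its change from 0 h stayed within 2-fold in all 6 comparisons, for instance -0.15 to 0.56 (log2) for the tall at 6 days. In unscaled FPKM the next smallest group ratios were 1.39 (1.73 on the TMM scale) for glutathione S-transferase U19 (CN01_scaffold003185G000010), which joins glutathione to reactive compounds, 1.46 for High mobility group B protein 1 (CN01_04G000220), a DNA-bending chromatin protein, 1.52 for Heat shock protein 81-3 (CN01_11G006660), an HSP90 chaperone, and 1.53 for histone H2A (CN01_04G002130).

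Intervals within 2-fold in all 6 time comparisons were found for 6 members. These were histone H3.3, histone H2A, High mobility group B protein 1, aspartic proteinase, 2-Cys peroxiredoxin BAS1 (CN01_15G001020), which removes peroxide in the chloroplast, and the Rubisco-binding protein beta subunit (CN01_09G001100), a chloroplast chaperonin. Among all 18840 genes tested, 17.6% had 6 such intervals. The intervals bound changes from 0 h and not those between later times. For the Rubisco-binding protein beta subunit the ratio of group means was 2.17 in unscaled FPKM and 1.78 on the TMM scale. In single comparisons 35 of 63 members lay within 2-fold for the tall at 4 h, 21 at 6 days and 23 at 10 days, against 46.4%, 46.1% and 39.4% of all genes. For the dwarf the counts were 28, 28 and 23, against 44.9%, 45.3% and 34.0% of all genes. In the tall, 0, 10 and 1 members had an interval wholly beyond 2-fold at these times, against 402, 530 and 304 of 18840 genes. In the dwarf 3, 1 and 1 members did, against 495, 193 and 405 genes. An interval that crosses 2-fold leaves the change undetermined to that extent.

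**Figure D2:**
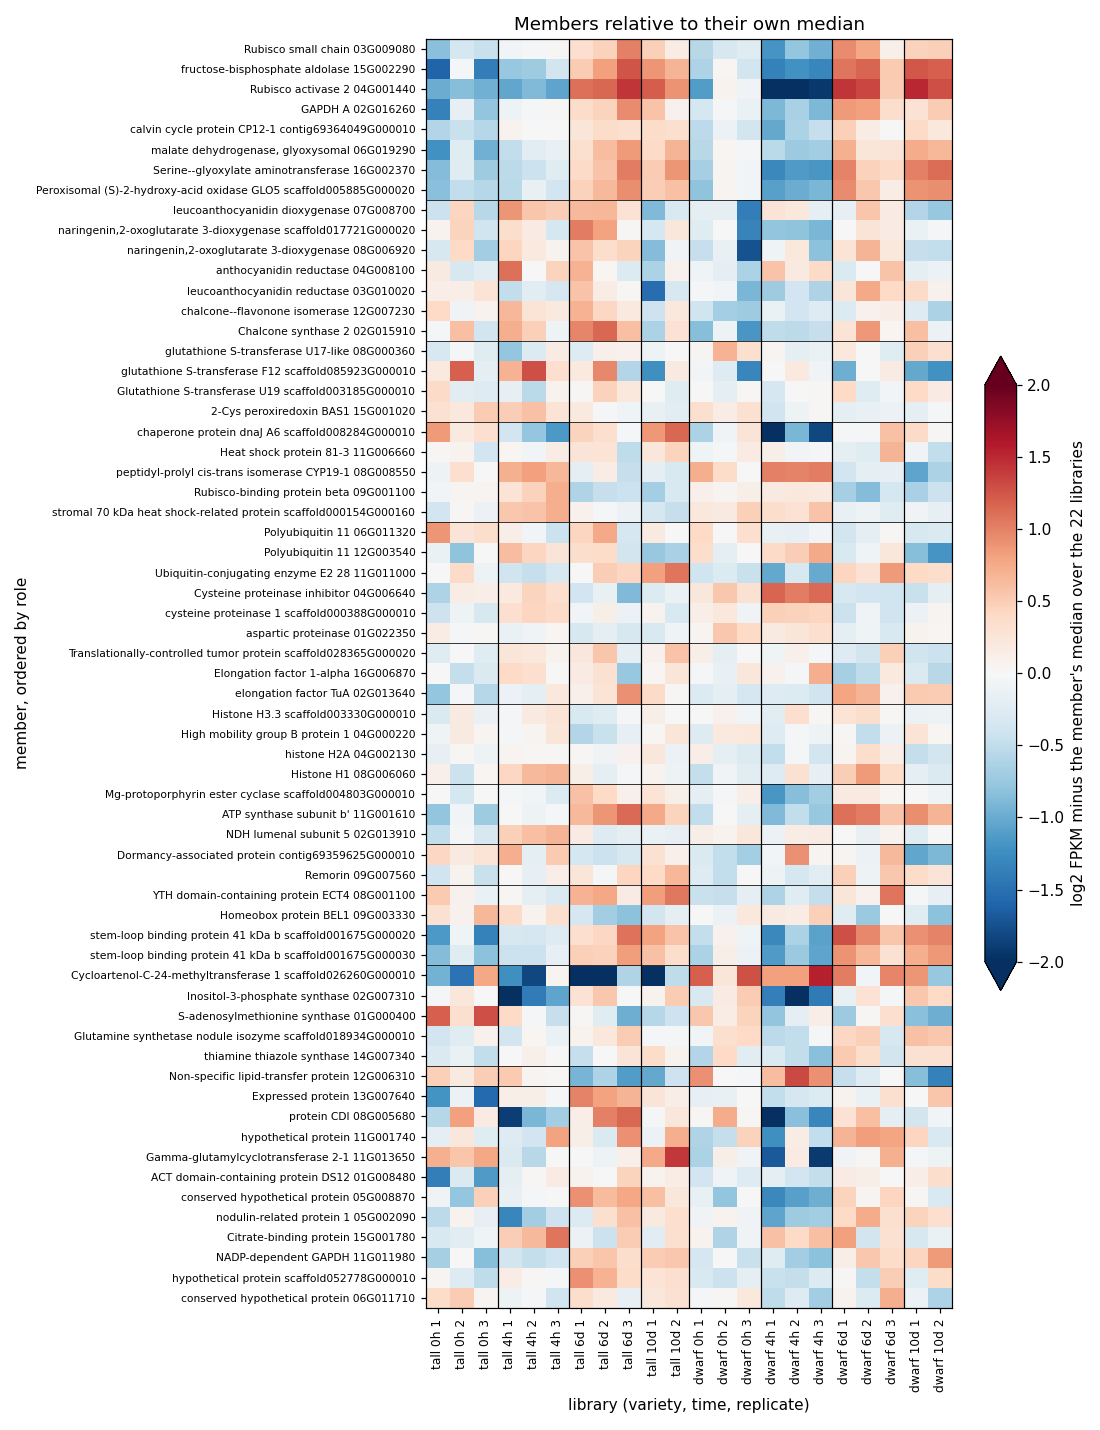
Each row is a member and each column a library; the colour is log2 FPKM minus the member's own median over the 22 libraries, clipped at 2 in either direction. The carbon fixation rows at the top are red to white at 6 and 10 days and blue in the dwarf at 4 h, while the rows of histones H3.3 and H2A stay pale.

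In the tests, a member was called at an adjusted p under 0.05 in the quasi-likelihood F test of edgeR, with p-values adjusted over all genes. Members were chosen for a high level, so the power of their tests may differ from that of all genes. Shares of all genes, called or within 2-fold, are therefore no like-for-like comparison. In the tall, 16 members were called at 4 h (11 higher and 5 lower), against 20.6% of all genes (10.9% higher and 9.73% lower). At 6 days 33 were called (30 higher and 3 lower), against 21.1% of genes (11.2% and 9.89%). At 10 days 20 were called, all of them higher, against 8.08% of genes (4.97% higher, 3.11% lower). The median log2 change of the members was 0.27, 0.61 and 0.36, and that of all genes 0.00, -0.02 and -0.03. The 4 h count was 8 without tall 0 h replicate 1, 10 without tall 0 h replicate 3 and 9 without tall 4 h replicate 2 or 3. The 6 day count was 21 without tall 0 h replicate 3. The 10 day count was 13 without tall 0 h replicate 3, 2 without tall 10 day replicate 1 and 9 without tall 10 day replicate 2.

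In the dwarf, 13 members were called at 4 h (2 higher and 11 lower), against 13% of all genes (5.81% higher and 7.23% lower). At 6 days 22 were called, all higher, against 7.97% of genes (4.36% higher, 3.61% lower). At 10 days 11 were called (10 higher and 1 lower), against 8% (4.03% and 3.97%). It was 5 with the leaf as a block and 20 with no term for flow cell, which separates the dwarf 0 h from the dwarf 10 day libraries. Member medians were -0.31, 0.61 and 0.39, and those of all genes 0.00, -0.02 and -0.05. The 4 h count was 7 without dwarf 0 h replicate 3 or dwarf 4 h replicate 3 and 8 without dwarf 4 h replicate 1. At 6 days it was 8 without dwarf 0 h replicate 1, 12 without dwarf 0 h replicate 3 and 2 without dwarf 6 day replicate 1. At 10 days it was 0 without dwarf 10 day replicate 1, 2 without dwarf 10 day replicate 2, 3 without dwarf 0 h replicate 1, 5 without tall 4 h replicate 3 and 6 without dwarf 4 h replicate 3. It was 7 without tall 4 h replicate 1 or 2, tall 10 day replicate 2, dwarf 0 h replicate 3 or dwarf 6 day replicate 1.

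Over the 3 later times together, 40 members were called in the tall and 44 in the dwarf, 33 of them in both, against 37.4% and 40.2% of all genes. Neither test called 12 members, and 17 were called in none of the 6 single comparisons. Shares of all genes were not counted for the 33, 12 and 17, so these counts are only a description. Among the 6 members bounded within 2-fold, these edgeR tests called the Rubisco-binding protein beta subunit (adjusted p = 0.00243 tall, 0.0228 dwarf). Histone H2A was called in the dwarf alone (adjusted p = 0.00206), and the rest of the 6 in neither variety. The TMM factors were 1.07 to 1.14 at 0 h and 4 h and 0.832 to 0.952 at 6 and 10 days. Scaled by library totals alone, the median of all genes stood at -0.33 and -0.26 (log2) in the tall and -0.29 and -0.32 in the dwarf at 6 and 10 days, so changes here are relative to the TMM scale. With library totals the calls were 18 higher and 4 lower in the tall at 6 days, 12 and 0 in the tall at 10 days, 12 and 3 in the dwarf at 6 days, and 5 and 3 in the dwarf at 10 days.

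**Figure D3:**
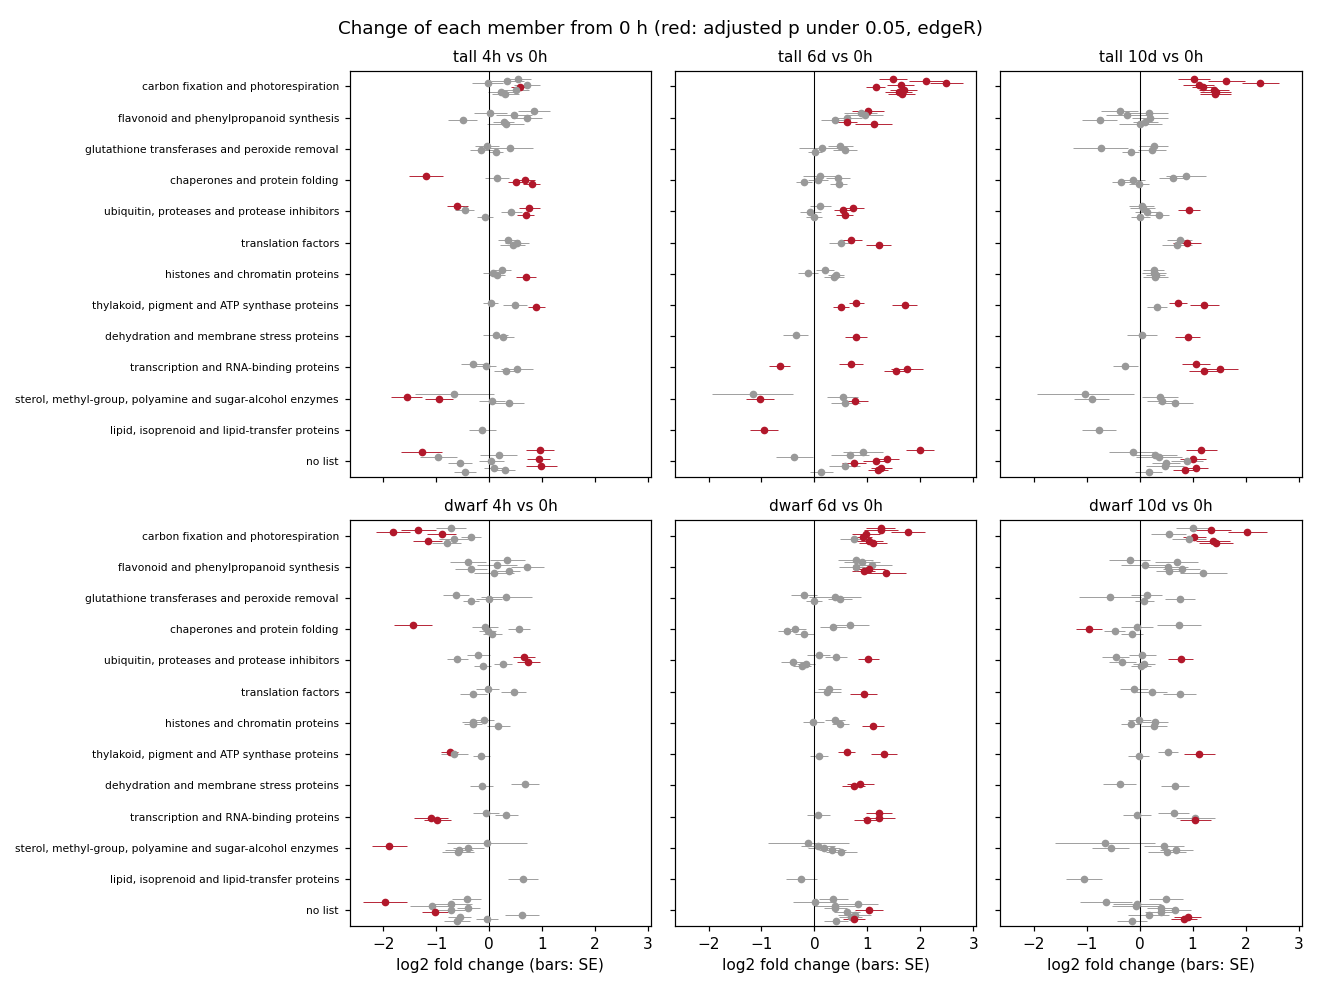
Log2 fold change of each member from 0 h (points) with its SE (bars) in the 6 comparisons, by role; red points have an edgeR adjusted p under 0.05. All 8 carbon fixation members are red in the tall at 6 and at 10 days.

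Most of the 8 members of carbon fixation and photorespiration rose at the later times. In the tall all 8 rose at 6 days (median log2 change 1.64) and all 8 at 10 days (1.42). In the dwarf 7 rose at 6 days (1.07) and 5 at 10 days (1.19), while 4 fell at 4 h (-0.85) and in the tall at 4 h 1 rose (0.42). Over all genes, 11.2% and 4.97% rose in the tall and 4.36% and 4.03% in the dwarf at 6 and 10 days. At 4 h, 10.9% of all genes rose and 9.73% fell in the tall, and 5.81% rose and 7.23% fell in the dwarf. The other 18 genes of this list in the study's table, which the study chose on these libraries so that they are no independent evidence of direction, included 17 and 13 that rose in the tall (medians 1.58 and 1.27) and 11 and 11 in the dwarf (1.08 and 1.28) at 6 and 10 days. At 4 h, 15 of them fell in the dwarf (-1.38) and 2 in the tall (-0.15). The tall 10 day count was 2 without tall 10 day replicate 1 and 5 without replicate 2. The dwarf 6 day count was 0 without dwarf 6 day replicate 1, 3 without dwarf 0 h replicate 1, 4 without dwarf 0 h replicate 3 and 3 with limma on log2 FPKM. The dwarf 10 day count was 0 and 2 without dwarf 10 day replicate 1 and 2, and 3 without dwarf 0 h replicate 1. The dwarf 4 h count was 2 without dwarf 0 h replicate 2, 7 without dwarf 6 day replicate 1, and 0 when only dwarf libraries were fitted. The tall 4 h count was 0 without any single library of the tall at 4 h or tall 0 h replicate 1 or 3, 4 without tall 0 h replicate 2, and 2 without dwarf 6 day replicate 1 or 3.

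Rubisco activase 2 moved most of the 63, with a ratio of 11.2 between group means. In the tall its FPKM was 2092, 2302 and 2149.9 at 0 h, 2035, 2267 and 1998 at 4 h, 8898, 9265 and 11238 at 6 days and 9629.5 and 7747 at 10 days. In the dwarf the values were 1924, 4362 and 3978, 899.9, 951 and 1096, 11275, 10493 and 5926 and 11864 and 10210.2 FPKM. In both varieties every library of 6 and 10 days lay above every 0 h library, and in the dwarf every 4 h library lay below. The log2 change in the tall was -0.03 at 4 h, 2.49 ± 0.31 (SE, adjusted p = 0.000155) at 6 days and 2.28 ± 0.35 (SE, adjusted p = 0.00209) at 10 days. In the dwarf it was -1.81 ± 0.32 (SE, adjusted p = 0.00178) at 4 h, 1.76 ± 0.31 (SE, adjusted p = 0.00462) at 6 days and 2.03 ± 0.37 (SE, adjusted p = 0.00701) at 10 days. The difference between the varieties at 4 h was 1.78 ± 0.43 (SE, adjusted p = 0.112), which did not pass the test.

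Fructose-bisphosphate aldolase had 1511, 4463 and 1749 FPKM at 0 h in the tall, 2723, 2812 and 3560.3 at 4 h, 6537, 8114 and 10937 at 6 days and 8421 and 7326 at 10 days. In the dwarf it had 2978, 4703 and 3550.3, 1786, 1973 and 1851, 9634, 10290.1 and 6584 and 10894 and 10526 FPKM. All libraries of 6 and 10 days lay above those of 0 h in both varieties, and tall 0 h replicate 2 was far above the other 2 of its group. The change was 2.11 ± 0.32 (SE, adjusted p = 0.000449) in the tall and 1.26 ± 0.32 (SE, adjusted p = 0.0255) in the dwarf at 6 days, and -1.34 ± 0.33 (SE, adjusted p = 0.013) in the dwarf at 4 h. At 10 days it was 1.64 ± 0.35 (SE, adjusted p = 0.0107) in the tall and 1.34 ± 0.39 (SE, adjusted p = 0.0418) in the dwarf, where the adjusted p was 0.0726 with the leaf as a block.

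Rubisco small chain held 18148, 25298 and 23666 FPKM at 0 h in the tall, 31069, 31730.00 and 32773 at 4 h, 40511, 44316 and 65008 at 6 days and 44884 and 35902 at 10 days. In the dwarf it held 21937, 25815 and 27273, then 14236, 18855 and 16486, 62033, 55239.8 and 34667 and 44536 and 44830.2 FPKM. The tall 4 h libraries lay above those of 0 h and the dwarf 4 h libraries below, with no overlap in either. Of all genes, 17.7% lay wholly above in the tall and 15.3% wholly below in the dwarf at 4 h. The log2 changes of 0.54 in the tall and -0.72 in the dwarf at 4 h did not pass the test. The change at 6 days was 1.48 ± 0.26 (SE, adjusted p = 0.00118) in the tall and 1.25 ± 0.27 (SE, adjusted p = 0.0118) in the dwarf. At 10 days it was 1.02 ± 0.30 (SE, adjusted p = 0.0459) in the tall, where the adjusted p was 0.0585 with the leaf as a block, and 1.01 ± 0.33 (SE, adjusted p = 0.0645) in the dwarf.

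The photorespiratory members followed the same times. Serine-glyoxylate aminotransferase (CN01_16G002370), which makes glycine in the peroxisome, changed by 1.59 ± 0.26 (SE, adjusted p = 0.000624) in the tall and 1.03 ± 0.26 (SE, adjusted p = 0.0257) in the dwarf at 6 days. The peroxisomal 2-hydroxy-acid oxidase GLO5 (CN01_scaffold005885G000020), the enzyme that oxidises glycolate, changed by 1.64 ± 0.25 (SE, adjusted p = 0.000504) and 1.11 ± 0.27 (SE, adjusted p = 0.0185). Glyoxysomal malate dehydrogenase (CN01_06G019290) changed by 1.69 ± 0.25 (SE, adjusted p = 0.000449) in the tall and by 0.75 ± 0.26 (SE, adjusted p = 0.0846) in the dwarf, which did not pass. Of the remaining Calvin cycle members, glyceraldehyde-3-phosphate dehydrogenase A (CN01_02G016260) changed by 1.63 ± 0.26 (SE, adjusted p = 0.000581) in the tall at 6 days. CP12-1 (CN01_contig69364049G000010), a small protein that binds that dehydrogenase, changed by 1.15 ± 0.17 (SE, adjusted p = 0.000449), and its range over all libraries was 556 to 1569 FPKM.

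The members took a varying share of the leaf transcript pool. Together they held 7.58% to 8.88% of the expected count in the tall at 0 h, 8.71% to 8.93% at 4 h, 12.03% to 13.8% at 6 days and 11.3% to 11.5% at 10 days. In the dwarf the shares were 8.11% to 9.04%, 6.52% to 7.27%, 11.4% to 13.6% and 11.5% to 12.5%. The 8 carbon fixation genes held 1.76% to 2.76% at 0 h and 5.10% to 7.67% at 6 days in the tall, and 1.44% to 1.75% at 4 h in the dwarf. Rubisco small chain alone held 0.747% to 3.42%. In bulk leaf RNA, a change in the share of a cell type and a change of RNA per cell cannot be told apart.

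**Figure D4:**
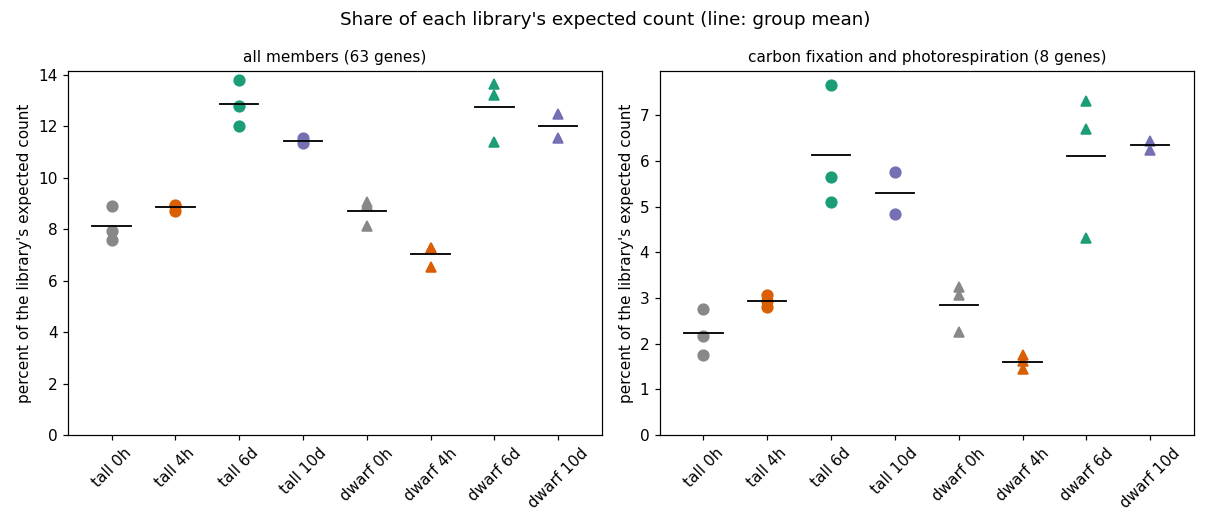
Percent of each library's expected count held by all 63 members (left) and by the 8 carbon fixation and photorespiration members (right); each point is a library and lines are group means. In both panels all libraries of 6 and 10 days lie above all of 0 h and 4 h, and the dwarf 4 h libraries are lowest.

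A smaller set of members fell at 4 h in both varieties. Inositol-3-phosphate synthase (CN01_02G007310, chr2:22244452-22249032), the first enzyme of inositol synthesis, had 1816, 2177 and 1862 FPKM at 0 h and 364, 704 and 893 at 4 h in the tall, then 2257, 2684 and 1849 at 6 days and 1956 and 2636 at 10 days. In the dwarf it had 1501, 2079 and 2647 at 0 h, 719, 426 and 695 at 4 h, 1668, 2271 and 1816 at 6 days and 2690.3 and 2457 at 10 days. In both varieties all 4 h libraries lay below all others. The 4 h change was -1.56 ± 0.30 (SE, adjusted p = 0.00179) in the tall and -1.88 ± 0.32 (SE, adjusted p = 0.00142) in the dwarf, and it kept its call under all 31 alternatives in each.

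Protein CDI (CN01_08G005680) fell from 1196, 3134 and 1984 FPKM to 479.98, 945 and 1093 at 4 h in the tall and from 1796, 2973 and 1791 to 396, 987 and 719 in the dwarf. The 4 h and 0 h libraries did not overlap in either variety. The change was -1.28 ± 0.38 (SE, adjusted p = 0.0258) in the tall and -1.96 ± 0.42 (SE, adjusted p = 0.00561) in the dwarf. The chaperone DnaJ A6 (CN01_scaffold008284G000010), a co-chaperone of HSP70, fell from 4032, 2571 and 2824 to 1716, 1311 and 1014 FPKM in the tall and from 1446, 2132 and 2692 to 421, 1194 and 636 in the dwarf. Again no library overlapped, and the change was -1.19 ± 0.32 (SE, adjusted p = 0.0136) and -1.43 ± 0.36 (SE, adjusted p = 0.0143). When only dwarf libraries were fitted, 1 member, inositol-3-phosphate synthase, kept its call at 4 h, against 13 in the fit of all libraries.

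The 5 chaperone members did not move together at 4 h in the tall, where 3 rose and DnaJ A6 fell. Stromal 70 kDa heat shock-related protein (CN01_scaffold000154G000160), a chloroplast HSP70, changed by 0.80 ± 0.16 (SE, adjusted p = 0.0025) and the Rubisco-binding protein beta subunit by 0.50 ± 0.15 (SE, adjusted p = 0.025). The cyclophilin CYP19-1 (CN01_08G008550), a prolyl isomerase, changed by 0.67 ± 0.19 (SE, adjusted p = 0.0176), and in the dwarf by 0.56 ± 0.20 (SE, adjusted p = 0.0803) at 4 h and -0.96 ± 0.25 (SE, adjusted p = 0.0256) at 10 days, the single fall called there. Heat shock protein 81-3 was called in none of the 6 comparisons. The other 28 chaperone genes of the study's table, chosen by the study on these libraries, included 14 that fell and 7 that rose in the tall at 4 h, and 17 and 4 in the dwarf. Over all genes, 9.73% fell and 10.9% rose in the tall at 4 h, and 7.23% fell and 5.81% rose in the dwarf.

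**Figure D5:**
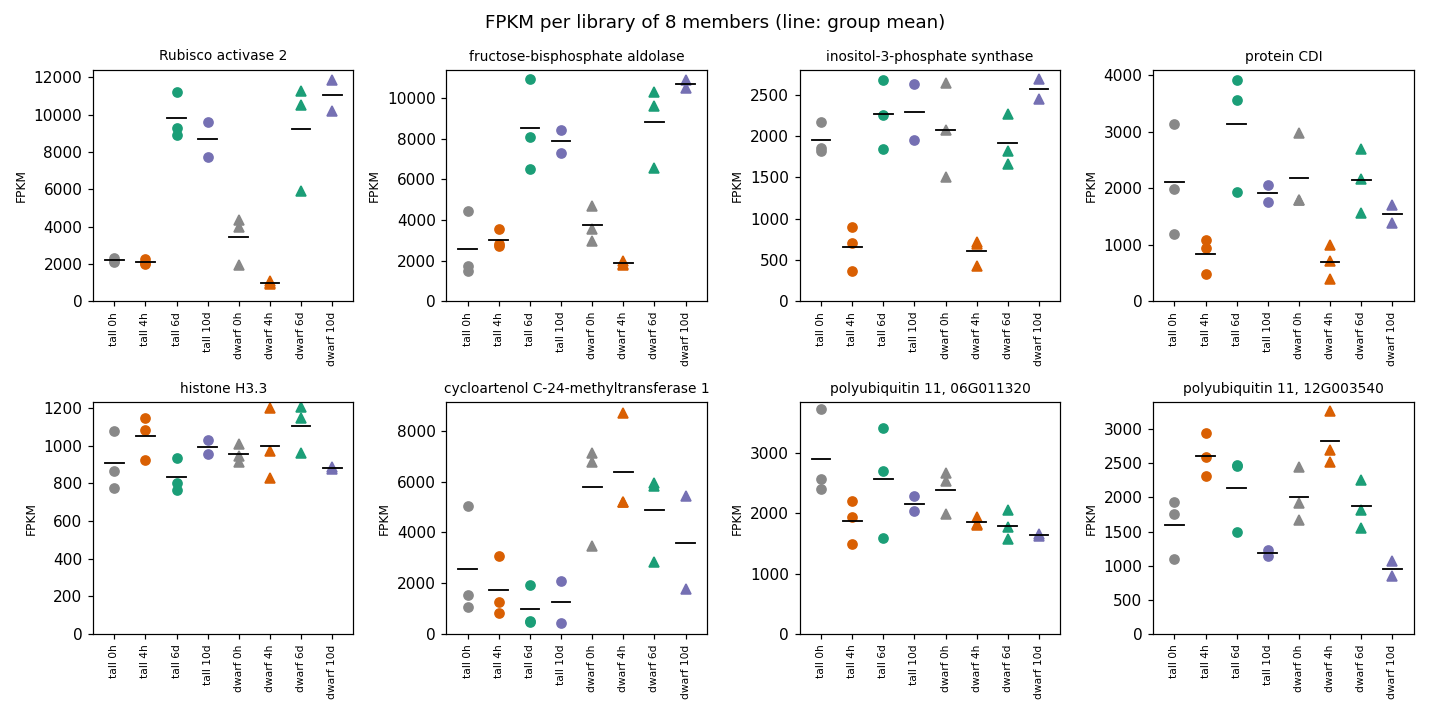
FPKM of 8 members in each library by variety and time; points are libraries (circles tall, triangles dwarf), lines are group means and each axis starts at 0. Inositol-3-phosphate synthase and protein CDI are lowest at 4 h in both varieties, histone H3.3 stays between 766 and 1207 FPKM, and the methyltransferase is spread within its groups.

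Genes often used as references differed in how even they were. The polyubiquitin 11 genes, which encode head-to-tail ubiquitin repeats, went different ways at 4 h in the tall. The copy on chromosome 6 (CN01_06G011320) had 3725, 2396 and 2567 FPKM at 0 h and 2205, 1939.8 and 1488 at 4 h, and the copy on chromosome 12 (CN01_12G003540) had 1764, 1103 and 1933 and 2939, 2593 and 2312. The libraries of 4 h lay wholly below those of 0 h for the first and wholly above for the second. The changes were -0.60 ± 0.20 (SE, adjusted p = 0.0383) and 0.76 ± 0.19 (SE, adjusted p = 0.0103). In the dwarf at 4 h they were -0.20 ± 0.22 (SE, adjusted p = 0.591) and 0.66 ± 0.21 (SE, adjusted p = 0.0469), the latter with an adjusted p of 0.0906 with the leaf as a block. Over the 22 libraries their log2 levels had a Pearson r of -0.01 and a Spearman rho of -0.15, as a description, and reads that fit both genes may have been divided between them.

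Elongation factor 1-alpha (CN01_16G006870), which brings aminoacyl-tRNA to the ribosome, ranged over 566 to 1594 FPKM, with a ratio of 1.65 between group means. It was called only in the tall at 10 days, at 0.89 ± 0.27 (SE, adjusted p = 0.0491), and not with the leaf as a block (adjusted p = 0.112). The translationally-controlled tumor protein (CN01_scaffold028365G000020) ranged over 1572 to 3146 FPKM, with a ratio of 1.7, and rose in the tall at 6 days by 0.70 ± 0.20 (SE, adjusted p = 0.0205). With library totals in place of TMM that change was 0.39 (adjusted p = 0.18). Chloroplast elongation factor TuA (CN01_02G013640) changed by 1.21 ± 0.24 (SE, adjusted p = 0.00264) in the tall and 0.93 ± 0.25 (SE, adjusted p = 0.0338) in the dwarf at 6 days.

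Of the 4 histones and chromatin proteins, histone H1 alone was called in the 6 comparisons, which called 7.97% to 21.1% of all genes. This linker histone rose in the tall at 4 h by 0.70 ± 0.19 (SE, adjusted p = 0.0177) and in the dwarf at 6 days by 1.11 ± 0.21 (SE, adjusted p = 0.00634). Among ubiquitin, protease and inhibitor genes, ubiquitin-conjugating enzyme E2 28 (CN01_11G011000) changed by 0.93 ± 0.21 (SE, adjusted p = 0.0146) in the tall at 10 days and 1.02 ± 0.19 (SE, adjusted p = 0.0062) in the dwarf at 6 days. The cysteine proteinase inhibitor (CN01_04G006640), a cystatin, had 1024, 1272 and 1079 FPKM at 0 h and 1963, 1770.4 and 1927 at 4 h in the dwarf. All 4 h libraries lay above, and the change was 0.74 ± 0.22 (SE, adjusted p = 0.0312). Aspartic proteinase stayed at 376 to 681 FPKM and was called in no comparison.

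Of the 7 flavonoid genes, 3 rose at 6 days in the tall (median of the 7, 0.88) and 3 in the dwarf (0.93), and none of these members was called at 4 h or 10 days in either variety. Over all genes, 11.2% rose at 6 days in the tall and 4.36% in the dwarf, and 10.9% and 5.81% rose at 4 h. The other 12 flavonoid genes of the study's table, chosen by the study on these libraries, went differently, with 3 that rose at 4 h in each variety. At 6 days 3 of them rose and 1 fell in the tall and 2 rose in the dwarf, and at 10 days 1 fell in the tall. Chalcone synthase 2 (CN01_02G015910), which makes the first flavonoid skeleton, had 968, 1501 and 759.7 FPKM at 0 h and 1953, 2211 and 1506 at 6 days in the tall, and 551, 929.7 and 443 and 1197, 1809.8 and 1020.3 in the dwarf. The tall libraries of 6 days lay above those of 0 h, as did the dwarf ones. The change was 1.12 ± 0.35 (SE, adjusted p = 0.0309) and 1.35 ± 0.38 (SE, adjusted p = 0.038). With library totals the adjusted p was 0.08 in the tall and 0.063 in the dwarf. Leucoanthocyanidin dioxygenase (CN01_07G008700), which makes anthocyanidins, changed by 1.01 ± 0.30 (SE, adjusted p = 0.0231) in the tall, and leucoanthocyanidin reductase (CN01_03G010020), which makes catechins, by 1.03 ± 0.30 (SE, adjusted p = 0.0426) in the dwarf. Chalcone isomerase (CN01_12G007230), which closes the flavanone ring, changed by 0.61 ± 0.19 (SE, adjusted p = 0.0324) in the tall and 0.93 ± 0.22 (SE, adjusted p = 0.0158) in the dwarf, with adjusted p = 0.27 and 0.0564 under library totals. The pair of naringenin 2-oxoglutarate 3-dioxygenases (CN01_scaffold017721G000020 and CN01_08G006920), which hydroxylate flavanones, and anthocyanidin reductase (CN01_04G008100), which makes flavan-3-ols, were called in none of the 6 time comparisons. Over the 3 later times together, edgeR called both dioxygenases in the dwarf (adjusted p = 0.0108 and 0.0339) and neither in the tall. Anthocyanidin reductase was called in neither variety.

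None of the 4 glutathione transferases and peroxide-removing members was called in any of the 6 time comparisons by edgeR, which called 7.97% to 21.1% of all genes. Over the 3 later times together, edgeR called glutathione S-transferase U19 alone, in the dwarf (adjusted p = 0.0456), and none of the 4 in the tall. Of the other 17 genes of this list in the study's table, chosen by the study on these libraries, 5 rose and 2 fell at 4 h, 8 and 3 at 6 days and 6 and 3 at 10 days in the tall. In the dwarf 0 and 3, 6 and 2, and 4 and 1 did so. Of the 24 tests of the 4 members, 5 had an unadjusted p under 0.05, and DESeq2 called 3, glutathione S-transferase U19 in the tall at 6 days and in the dwarf at 10 days and 2-Cys peroxiredoxin BAS1 in the dwarf at 4 h. Glutathione S-transferase U19 ranged over 733 to 1469.5 FPKM and 2-Cys peroxiredoxin BAS1 over 795 to 1569 FPKM. Glutathione S-transferase U17-like (CN01_08G000360) ranged over 801 to 2218 FPKM. Glutathione S-transferase F12 (CN01_scaffold085923G000010) spread more, over 486 to 2925 FPKM, with libraries of the same group differing widely. In the tall at 0 h it had 1363, 2726 and 1055 FPKM.

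The 3 members of the thylakoid, pigment synthesis and ATP synthase each rose at 6 days in the tall, where 11.2% of all genes rose. ATP synthase subunit b' (CN01_11G001610) changed by 1.71 ± 0.23 (SE, adjusted p = 0.000263) in the tall and 1.31 ± 0.25 (SE, adjusted p = 0.0059) in the dwarf at 6 days. Magnesium-protoporphyrin IX monomethyl ester cyclase (CN01_scaffold004803G000010), an enzyme of chlorophyll synthesis, changed by 0.79 ± 0.14 (SE, adjusted p = 0.00148) in the tall at 6 days and -0.75 ± 0.16 (SE, adjusted p = 0.00551) in the dwarf at 4 h. The NDH lumenal subunit 5 (CN01_02G013910), of the chloroplast NDH complex of cyclic electron flow, changed by 0.89 ± 0.15 (SE, adjusted p = 0.000897) in the tall at 4 h and 0.50 ± 0.15 (SE, adjusted p = 0.0281) at 6 days. With library totals the 6 day change was 0.19 (adjusted p = 0.367). Neighbouring genes CN01_scaffold001675G000020 and CN01_scaffold001675G000030 both bear the product name chloroplast stem-loop binding protein of 41 kDa b, a binder of chloroplast RNA. They changed by 1.75 ± 0.30 (SE, adjusted p = 0.000998) and 1.54 ± 0.23 (SE, adjusted p = 0.00047) in the tall at 6 days. Their log2 levels had a Pearson r of 0.98 and a Spearman rho of 0.97 over the 22 libraries. The m6A reader ECT4 (CN01_08G001100), a YTH domain protein, changed by 1.21 ± 0.25 (SE, adjusted p = 0.00827) in the dwarf at 6 days, and homeobox protein BEL1 (CN01_09G003330) by -0.66 ± 0.20 (SE, adjusted p = 0.026) in the tall.

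Further falls came in the tall. S-adenosylmethionine synthase (CN01_01G000400), which makes the methyl donor of the cell, had 3085, 1683 and 3298 FPKM at 0 h, 1772, 1327 and 974 at 4 h and 1358, 1136 and 684 at 6 days. The 4 h libraries overlapped with those of 0 h and the 6 day libraries lay below them. Its change was -0.94 ± 0.27 (SE, adjusted p = 0.0192) at 4 h and -1.03 ± 0.27 (SE, adjusted p = 0.0124) at 6 days. The non-specific lipid-transfer protein (CN01_12G006310), which carries lipids in the cell wall space, changed by -0.95 ± 0.26 (SE, adjusted p = 0.0153) at 6 days. Its levels were 4957, 4014 and 4978 at 0 h and 1859, 2308 and 1632 FPKM at 6 days, without overlap. In the dwarf it was called at no single time, but edgeR called it over the 3 later times together (adjusted p = 0.0016). Its group means were highest in the dwarf at 4 h and lowest in the dwarf at 10 days, with a ratio of 4.18 in unscaled FPKM. Rises in the tall included an expressed protein without a known role (CN01_13G007640), with 1.995 ± 0.26 (SE, adjusted p = 0.000197) at 6 days and 0.96 ± 0.26 (SE, adjusted p = 0.0141) at 4 h, and a citrate-binding protein (CN01_15G001780) with 0.99 ± 0.30 (SE, adjusted p = 0.0277) at 4 h. Of the stress proteins, remorin (CN01_09G007560), a plasma membrane protein, rose in the tall at 10 days by 0.91 ± 0.23 (SE, adjusted p = 0.0249) and in the dwarf at 6 days by 0.74 ± 0.21 (SE, adjusted p = 0.0409). Nodulin-related protein 1 (CN01_05G002090) fell in the dwarf at 4 h by -1.03 ± 0.24 (SE, adjusted p = 0.0105) and rose in the tall at 6 days by 0.75 ± 0.22 (SE, adjusted p = 0.0251). The dormancy-associated protein (CN01_contig69359625G000010) rose in the dwarf at 6 days by 0.86 ± 0.26 (SE, adjusted p = 0.048), which had an adjusted p of 0.0617 with the leaf as a block.

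Other members called in the time comparisons were the ACT domain-containing protein DS12 (CN01_01G008480), with 0.93 ± 0.21 (SE, adjusted p = 0.00499) at 4 h and 1.38 ± 0.21 (SE, adjusted p = 0.00047) at 6 days in the tall. NADP-dependent glyceraldehyde-3-phosphate dehydrogenase (CN01_11G011980), the cytosolic enzyme that makes NADPH without ATP, changed by 1.26 ± 0.20 (SE, adjusted p = 0.000605) in the tall at 6 days and 0.91 ± 0.26 (SE, adjusted p = 0.0385) in the dwarf at 10 days, where the adjusted p was 0.0676 with the leaf as a block. The hypothetical protein CN01_scaffold052778G000010 changed by 1.198 ± 0.19 (SE, adjusted p = 0.000605) in the tall at 6 days and was called at 6 and 10 days in both varieties, but with the leaf as a block only in the tall at 6 days (adjusted p = 0.000745). Cysteine proteinase 1 (CN01_scaffold000388G000010) changed by 0.69 ± 0.16 (SE, adjusted p = 0.00571) in the tall at 4 h, and glutamine synthetase (CN01_scaffold018934G000010), which binds ammonium into glutamine, by 0.77 ± 0.24 (SE, adjusted p = 0.0309) at 6 days. With library totals the change of glutamine synthetase was 0.45 (adjusted p = 0.121).

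The 17 members called in none of the 6 comparisons were not all even. Gamma-glutamylcyclotransferase 2-1 (CN01_11G013650), an enzyme of glutathione breakdown, ranged over 384 to 3865 FPKM, with a ratio of 3.85 between group means. The hypothetical protein CN01_11G001740 ranged over 739 to 3269 FPKM (ratio 2.28). Thiamine thiazole synthase (CN01_14G007340), of vitamin B1 synthesis, stayed at 438 to 1113 FPKM (ratio 1.77), and the conserved hypothetical protein CN01_06G011710 at 415 to 1110.3 FPKM (ratio 1.73). In unscaled FPKM the ratios of these 17 ran from 1.33 for histone H3.3 to 6.53 for cycloartenol C-24-methyltransferase 1. The edgeR test of the later times together called gamma-glutamylcyclotransferase 2-1 (adjusted p = 0.0223) and CN01_11G001740 (adjusted p = 0.0151) in the dwarf. It also called thiamine thiazole synthase (adjusted p = 0.0163) and CN01_06G011710 (adjusted p = 0.00807) there. None of these genes was called by that test in the tall. Histone H3.3 and cycloartenol C-24-methyltransferase 1 were called by it in neither variety.

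The varieties were also compared on the mean of the 4 times. The 95% interval of the tall to dwarf difference lay within 2-fold for 60 of 63 members, against 84.5% of all genes. The test called 4, 3 higher and 1 lower in the tall, against 5.01% of genes (2.87% higher and 2.14% lower), while DESeq2 called 12, 9 higher and 3 lower. Leaf is nested in variety, so no blocked fit exists here, and libraries of the same leaf entered these tests as if independent. The p-values here may therefore be too small. The conserved hypothetical protein CN01_05G008870 differed by 0.54 ± 0.13 (SE, adjusted p = 0.0241), chalcone isomerase by 0.51 ± 0.10 (SE, adjusted p = 0.0106) and ECT4 by 0.45 ± 0.12 (SE, adjusted p = 0.0378). As means over 0 h, 4 h and 6 days on the TMM scale, the 3 tall leaves held 1127 to 1456 FPKM of chalcone isomerase and the 3 dwarf leaves 822 to 838, without overlap. For ECT4 they held 1206 to 1630 and 1091 to 1505, which overlap. The count was 1 without tall 10 day replicate 1, 2 without dwarf 4 h replicate 3 or either dwarf 10 day library, and 8 without dwarf 4 h replicate 2 or dwarf 6 day replicate 3.

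Cycloartenol C-24-methyltransferase 1 was the single member called lower in the tall, with a log2 difference of -1.76 ± 0.39 (SE, adjusted p = 0.0166). In the tall it had 1535, 1056 and 5057 FPKM at 0 h, 1263, 832 and 3056 at 4 h, 501, 478 and 1946 at 6 days and 425 and 2078 at 10 days. In the dwarf it had 6762, 3479 and 7139, then 5196, 5199 and 8711, 5969, 2851 and 5811 and 5420.5 and 1755 FPKM. Groups of the same variety overlapped over time. Much of the spread within the tall lay between leaves, since leaf 3 was above the others at 0 h, 4 h and 6 days, and each tall leaf had less at 6 days than at 0 h. As means over those times on the TMM scale, the tall leaves held 1015, 753 and 3243 FPKM and the dwarf leaves 6017, 3713 and 6822, without overlap, so the comparison rests on 3 leaves against 3. Its count was not whole in any of the 22 libraries, so reads may have been divided with a near-identical copy.

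At single times, edgeR called no member at 0 h, 2 at 4 h (both higher in the tall), none at 6 days and none at 10 days, against 0.409%, 1.06% (0.717% higher and 0.34% lower), 0.0265% and 0.0743% of all genes. At an unadjusted p under 0.05 there were 18, 30, 7 and 9 members, and DESeq2 called 4, 13, 0 and 3. The members called at 4 h were the magnesium-protoporphyrin ester cyclase, at 0.73 ± 0.15 (SE, adjusted p = 0.0242), and 2-Cys peroxiredoxin BAS1, at 0.58 ± 0.14 (SE, adjusted p = 0.0496). The 4 h count was 0 without any single tall 4 h library or dwarf 4 h replicate 1 or 3. It was 1 without any single library of the tall at 6 or 10 days or of the dwarf at 10 days, dwarf 0 h replicate 3 or dwarf 6 day replicate 2. It was 5 without dwarf 0 h replicate 1 or dwarf 6 day replicate 3 and 6 without dwarf 6 day replicate 1. The 0 h count was 3 without tall 0 h replicate 2 or dwarf 6 day replicate 1.

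No member was called by edgeR for a different change from 0 h in the tall and the dwarf at 4 h, 6 days or 10 days, against 0.0584%, 0% and 0% of all genes. At an unadjusted p under 0.05 there were 21, 9 and 4 members, and DESeq2 called 15, 1 and 0. The 4 h count was 6 without tall 0 h replicate 2 or dwarf 0 h replicate 1 and 7 without dwarf 6 day replicate 1, and the 6 day count was 1 without tall 0 h replicate 2. The intervals of these differences lay within 2-fold for 20, 21 and 26 of 63 members, so for most of them a difference of 2-fold between the varieties was within the interval.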

How the data were processed

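Poly(A) RNA of leaves was sequenced by the authors as 1 library per sample. The deposited tables hold, per gene, an expected count and FPKM, both estimated by the authors with RSEM after alignment with Bowtie to the coconut gene models. BWA was also named, for alignment to the genome. Versions are not given in the sources used here. Genes without a count are missing from a library's table and were set to 0.

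Members were taken from the deposited FPKM, with product names joined by locus tag to the study's gene table. The study chose the genes of that table on these libraries, and 43 of its rows were not in the copy used. The members and the 12 gene lists were chosen with earlier results of these data known. Positions of 5355 genes were identical in the study's tables and in RefSeq (ASM812446v1).

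Expected counts were rounded and fitted with edgeR 4.0.16 in R 4.3.3 (filterByExpr, TMM, quasi-likelihood), with 8 groups of variety and time plus flow cell, read from the library description (11 libraries on each). Benjamini-Hochberg adjustment ran over 18840 genes. The coefficient of biological variation was 24.0%, residual degrees of freedom were 13, and 6 genes were called for flow cell. SEs came from the F statistic, and 95% intervals from the t distribution. Alternatives used limma 3.58.1 on log2 FPKM and DESeq2 1.42.0, other filters and scaling, and each library left out. The fit was run on simulated data with independent libraries and changes made only in the tall at 4 h. Those data held no leaf or flow cell effect and no shift at 6 or 10 days, so they do not bear on these.

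The study's methods state that same-numbered libraries came from the same leaf. Deviations from group means correlated by 0.231 on average between same-numbered tall libraries (0.0692 to 0.445) and by 0.0988 in the dwarf (-0.291 to 0.419), against -0.116 and -0.0494 between other numbers. An alternative fit carried the leaf as a block, with the library number taken as the leaf, also at 10 days.

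Genes named in the text were the leading members of each list by median FPKM, those with the smallest and largest ratio of group means, the largest called changes of each comparison and common reference genes. The rest were added so that all members are accounted for, and were chosen after their values were seen.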

Additional observations from a re-analysis of the deposited data

Results flagged for a closer look

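For 6 members, on FPKM divided by the TMM factor, all libraries of a later time lay above all those of 0 h in one variety and below them in the other, which was so for 2.82% of the 18840 genes tested, and in none did the edgeR test of the difference between the changes pass. At 4 h, glyceraldehyde-3-phosphate dehydrogenase A (CN01_02G016260) changed by 0.71 in the tall and -0.90 in the dwarf (log2), a difference of 1.61 ± 0.38 (SE, adjusted p = 0.104). Rubisco small chain (CN01_03G009080) changed by 0.54 and -0.72, a difference of 1.26 ± 0.38 (adjusted p = 0.186). The expressed protein CN01_13G007640 changed by 0.96 and -0.42, a difference of 1.38 ± 0.38 (adjusted p = 0.159).

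At 6 days, the dormancy-associated protein (CN01_contig69359625G000010) changed by -0.35 in the tall and 0.86 in the dwarf, a difference of -1.22 ± 0.35 (adjusted p = 0.458). Gamma-glutamylcyclotransferase 2-1 (CN01_11G013650) changed by -0.38 and 0.38, a difference of -0.77 ± 0.52 (adjusted p = 0.672). At 10 days leucoanthocyanidin reductase (CN01_03G010020) changed by -0.75 and 0.79, a difference of -1.55 ± 0.43 (adjusted p = 0.565). No group held more than 3 libraries, so single libraries far from the rest of a group were not looked for in this way.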

How the results depend on the processing

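With a 2-fold change required as well, the members called were 3 and 20 in the tall at 4 h and 6 days, 8 (4 h), 13 (6 days) and 7 (10 days) in the dwarf, 0 between varieties at 4 h and 1 on the mean of times. With limma on log2 FPKM, at a pseudocount of 1 or 0.1, they were 21 and 12 in the tall at 6 and 10 days, 9 and 7 in the dwarf at those times, and 1 between varieties at 4 h. Library totals in place of TMM gave 12 in the tall at 10 days. The libraries of the dwarf alone gave 1 at 4 h, 10 at 6 days and 5 at 10 days. Without flow cell the dwarf had 20 at 10 days, and 4 differed between varieties at 4 h. The latter count was 1 with no filter on low counts and 6 with at least 50 counts. DESeq2 called 17 in the dwarf at 10 days, 4, 13 and 3 between varieties at 0 h, 4 h and 10 days, 12 on the mean of times, and 15 and 1 for a different change at 4 h and 6 days.

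With the leaf as a block, which pairs the libraries of 1 leaf, 5 members were called in the dwarf at 10 days, and the block moved no other count by over 1.5 times. Single calls lost with it numbered 1 and 7 in the tall at 6 and 10 days and 3 (4 h), 4 (6 days) and 6 (10 days) in the dwarf.

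Leaving out 1 library at a time, counts ran from 8 to 17 (4 h), 21 to 36 (6 days) and 2 to 21 (10 days) in the tall and from 7 to 19, 2 to 26 and 0 to 14 at these times in the dwarf, and from 35 to 45 and 38 to 44 over all times. Between varieties they ran from 0 to 3 at 0 h, 0 to 6 at 4 h and 1 to 8 on the mean of times, and were 0 throughout at 6 and 10 days. For a different change they ran from 0 to 7 at 4 h, 0 to 1 at 6 days and were 0 at 10 days. The number of members ran from 63 to 67, and was 101 by group means and 99 with no product left out. The causes were not tested. Of 21315 single-gene values under the alternatives, 20539 kept direction and side of the threshold, 560 lost a call, 216 gained one and none called changed sign. The 2 libraries at 10 days limit what could be called there.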
